A study of Mus musculus with 10 samples.

Results

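The first day of reprogramming was examined by setting 2 libraries taken after 24 hours in iCD3 induction medium (D1) against 2 libraries taken before the medium was given (D0). They are 4 of the 10 RNA-seq libraries of a course that also holds D3, D5 and D7. All 4 came from primary mouse embryonic fibroblasts at passage 2, isolated from E13.5 embryos whose sires were CBA/CaJ × C57BL/6J with an Oct4-GFP transgenic allele and whose dams were 129S4/SvJaeJ. Cells of both days had been exposed for 48 hours to retroviruses that carry Jdp2, Glis1, Esrrb and Sall4, so the delivered factors are common to both. The groups differ in the medium and in 24 more hours after infection, which cannot be told apart. Per the series text the libraries come from 2 independent experiments, and each library is a bulk population. The labels state neither the share of cells that carry all 4 retroviruses nor what iCD3 contains.

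Fibroblasts on the way to pluripotent cells generally lose genes of their mesenchymal programme early and switch on the pluripotency network late. Signalling pathways report on themselves through feedback genes: Wnt through Axin2, cytokines of the LIF and interleukin-6 family through Socs3, TGF-beta through inhibitory Smads, and growth factors through Dusp and Spry genes. The genes of sterol, fatty acid and amino acid supply are likewise known for feedback, through SREBP factors and ATF4.

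Of 54752 genes in the files, 12752 had enough reads to be tested. The filter was set over all 10 libraries, so a gene read only at D3, D5 or D7 could pass and counts among those tested. Library totals were 3299701 and 1477281 estimated counts at D1 and 2176457 and 1492105 at D0. Levels are given as CPM, the counts scaled to the size of the library by TMM. On that scale 3 counts correspond to 0.913 and 2.13 CPM at D1 and to 1.468 and 2.245 CPM at D0. The share of mitochondrially encoded reads was 4.94% and 3.27% at D1 and 2.81% and 2.21% at D0. Mean fragment length, estimated from the gaps between gene lengths and effective lengths in the files, was 153 and 200 bases at D1 and 159 and 204 bases at D0, in replicates 1 and 2 in that order, so it separates the replicate numbers and not the days. Values below are CPM per library, and a change is the log2 difference D1 minus D0 with its standard error from edgeR's quasi-likelihood test with the replicate number as a block. A gene is called where its Benjamini-Hochberg adjusted p over all tested genes (edgeR adjusted p) is under 0.05. Since the labels name no culture or embryo behind each library, p-values cover the library-to-library spread only, which may be technical.

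By this rule 1350 genes, 10.6% of those tested, were called, 672 of them higher at D1 (5.27%) and 678 lower (5.32%). In 612 of the higher and 607 of the lower genes the change was at least 2-fold, and 1345 of the 1350 moved in the same direction in both replicates. Across the 12752 genes the changes in the replicates had a Pearson correlation of 0.67 and a Spearman rank correlation of 0.62, a description across genes, which are not independent replicates. Without the replicate block 577 genes were called, all within the 1350. The count was 436 without D1 replicate 1, 720 without D1 replicate 2, 481 without D0 replicate 1 and 588 without D0 replicate 2. A gene given below with values kept its call in each of the 13 alternative settings that could test it, unless the same paragraph says otherwise. Counts for gene lists come from the fit over all 10 libraries. Where 4 counts are given with single libraries left out, the libraries are D1 replicate 1, D1 replicate 2, D0 replicate 1 and D0 replicate 2, in that order. One alternative, edgeR on the D1 and D0 libraries alone, has 1 residual degree of freedom and called 3455 genes.

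**Figure D1:**
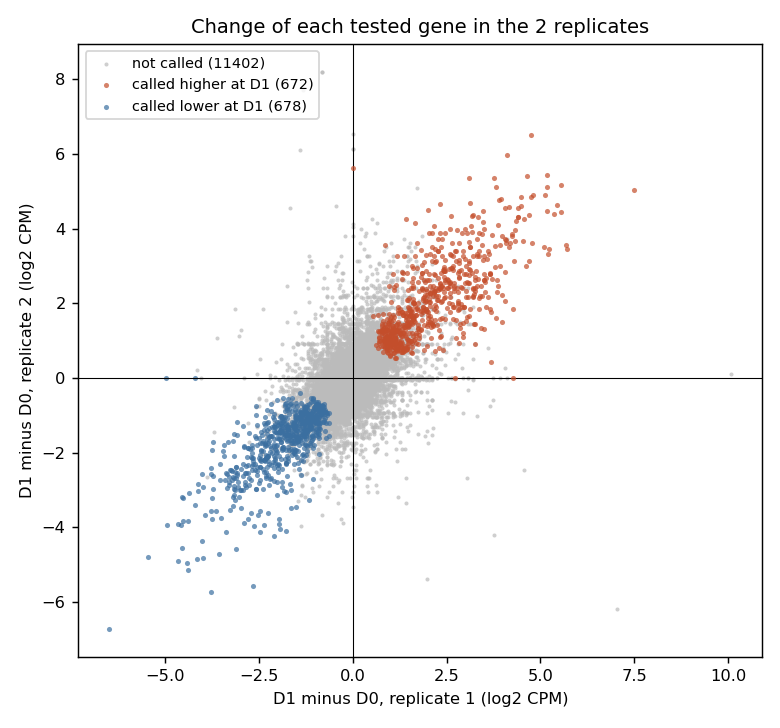
Change of each of the 12752 tested genes from D0 to D1 in replicate 1 (x axis) and replicate 2 (y axis), both in log2 CPM. Red points are the 672 genes called higher at D1, blue points the 678 called lower and grey points the rest; 1345 of the 1350 called genes have the sign of their call in both replicates.

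The delivered factors were expressed on both days and were not called in the fit over all 10 libraries. Esrrb, an orphan nuclear receptor, had 2149.6 and 2354 CPM at D1, against 1579 and 1836 CPM at D0, with a change of 0.40 ± 0.26. Sall4, a zinc finger factor, had 2574 and 2590.5 CPM at D1, against 2069.6 and 2677 CPM at D0 (0.15 ± 0.26). Glis1, a Gli-similar zinc finger factor, had 122.6 and 268 CPM at D1, against 74.9 and 207 CPM at D0 (0.54 ± 0.32). Jdp2, a repressor that dimerises with Jun proteins, had 1689 and 767 CPM at D1, against 951 and 561 CPM at D0 (0.66 ± 0.31). All 4 changes were positive. In that fit 0 had an unadjusted p under 0.05, and none was called by DESeq2 or limma-voom, but edgeR on the D1 and D0 libraries alone called 3 of the 4 higher (Esrrb, Glis1 and Jdp2). Reads of the delivered copy and of the cell's own gene cannot be told apart in these gene totals.

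Fibroblast markers were present at D0 and many were lower at D1. Of 17 tested, 8 fell and 1 rose, with a median log2 change of -1.47 against 0.01 over all tested genes. Cd248 (endosialin), a surface glycoprotein of mesenchymal cells, had 60.9 and 94.6 CPM at D1, against 492 and 763 CPM at D0 (-3.01 ± 0.24, edgeR adjusted p = 1.72e-05). Pdgfrb, a receptor for platelet-derived growth factor, had 115 and 154 CPM at D1, against 452 and 432 CPM at D0 (-1.75 ± 0.25). Thy1 had 54.2 and 53.4 CPM at D1, against 201 and 152 CPM at D0 (-1.71 ± 0.24). Pdgfra, the other receptor of that family, had 333 and 218 CPM at D1, against 172 and 146 CPM at D0 and was not called (0.80 ± 0.33, edgeR adjusted p = 0.17). Without D1 replicate 1, D1 replicate 2, D0 replicate 1 and D0 replicate 2 in turn, 4, 6, 3 and 6 markers were called lower. In bulk RNA, fewer cells of a type and less RNA per cell cannot be told apart, here and in every result below.

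Markers of other cell types that a fibroblast preparation can hold were summed over each list. Macrophage markers gave 31.2 and 14.98 CPM at D1 and 39.1 and 21.2 CPM at D0, with Aif1 at 0 in all 4 libraries. Adipocyte markers gave 33.4 and 41.98 CPM at D1 and 37.7 and 55.4 CPM at D0, with Cidec and Cfd at 0. Endothelial markers gave 92.2 and 82.2 CPM at D1 and 176 and 225 CPM at D0 (Sox17 at 0). The endothelial sum was lower at D1 although 9 of 12 tested members had a positive change (median 1.18); Esam was called higher and Flt1 lower. Skeletal muscle markers gave 58.4 and 106 CPM at D1 and 235 and 307 CPM at D0 (Myf5, Myf6, Pax3 and Mymk at 0). Of 3 tested muscle members 2 had a positive change, and the 1 called, Des, was lower and is also in the contractile list. Erythroid markers gave 16.4 and 14.4 CPM at D1 and 0.489 and 0.748 CPM at D0, with 6 of 11 at 0. Neuronal and glial markers gave 134 and 281 CPM at D1 and 235 and 296 CPM at D0 (Olig1, Olig2 and Syp at 0). Cartilage and bone markers gave 319 and 428 CPM at D1 and 202 and 240.3 CPM at D0 (Ibsp and Dmp1 at 0). Of the 37 members of these 7 lists that could be tested, 5 were called higher and 5 lower, and their part in the results below was not tested.

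**Figure D2:**
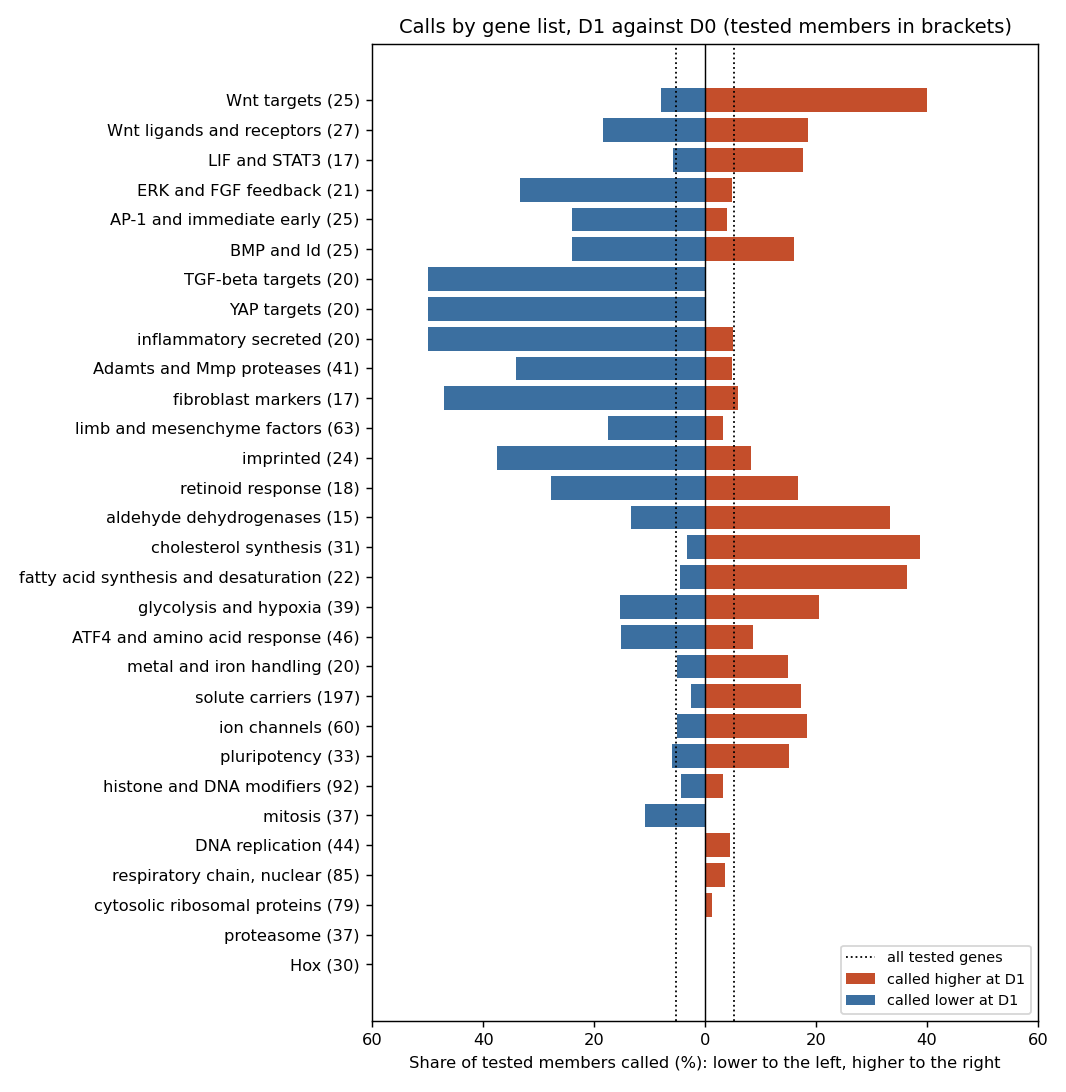
Share of tested members called higher (red, to the right) or lower (blue, to the left) at D1 for 30 gene lists, in percent, with the number of tested members in brackets. Dotted lines mark the shares over all tested genes, 5.27% higher and 5.32% lower; Wnt targets and sterol synthesis reach furthest to the right, and TGF-beta targets, YAP targets and inflammatory secreted factors reach 50% to the left.

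Several Wnt feedback genes rose within the day. Canonical Wnt signalling spares beta-catenin from degradation, and beta-catenin then acts with TCF/LEF factors on a set of target genes, many of which restrain the pathway. Of 25 tested targets, 10 rose and 2 fell, and the median change of the list was 1.56, against 0.01 over all tested genes. Without D1 replicate 1, D1 replicate 2, D0 replicate 1 and D0 replicate 2 in turn, 9, 9, 8 and 7 were called higher, and without the replicate block 7.

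Axin2, a scaffold of the complex that degrades beta-catenin, had 95.2 and 116 CPM at D1, against 4.89 and 8.23 CPM at D0, a log2 change of 4.04 ± 0.34 (edgeR adjusted p = 2.07e-05). Nkd1, which binds Dishevelled and dampens the signal, had 87.6 and 227 CPM at D1, against 13.7 and 22.5 CPM at D0 (3.03 ± 0.31). Apcdd1, a membrane inhibitor of Wnt, had 119.6 and 132 CPM at D1, against 15.2 and 23.95 CPM at D0 (2.72 ± 0.27). Both D1 libraries lay well above both D0 libraries for these 3 genes. Tnfrsf19, a TNF receptor family member that Wnt signalling induces, had 254 and 225 CPM at D1, against 11.3 and 10.5 CPM at D0, the list's smallest adjusted p (4.45 ± 0.28, edgeR adjusted p = 8.50e-06). Mixl1, a homeobox gene switched on as mesendoderm forms, had 21.3 and 22.8 CPM at D1 and no count in either D0 library. With a floor of 3 counts over both D0 libraries it was at least 24.5-fold higher at D1. Tcf7, a TCF/LEF factor itself, had 84.3 and 96.8 CPM at D1, against 15.7 and 22.5 CPM at D0 (2.27 ± 0.25). The 2 members that fell were Fst and Tcf7l1. Fst, which encodes the activin antagonist follistatin, had 6.999 and 11.4 CPM at D1, against 83.2 and 51.6 CPM at D0 (-2.94 ± 0.40). Tcf7l1, a TCF factor that mostly represses, had 13.7 and 26.3 CPM at D1, against 40.6 and 71.1 CPM at D0 (-1.51 ± 0.32). The call of Tcf7l1 was lost without the block (edgeR adjusted p = 0.0831), without D1 replicate 1 (0.19), and without D0 replicate 2 (0.12), and with limma on the deposited TPM (limma adjusted p = 0.0517).

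Among Wnt ligands, receptors and secreted inhibitors the calls went both ways, 5 higher and 5 lower of 27 (with single libraries left out 3, 4, 4 and 3 higher, with 2, 2, 2 and 3 lower; without the block 3 higher and 2 lower). The receptor gene Fzd10 had 53.9 and 53.4 CPM at D1, against 2.45 and 1.497 CPM at D0 (4.66 ± 0.42, edgeR adjusted p = 3.78e-05). Fzd6 had 76.7 and 93.9 CPM at D1, against 14.7 and 17.2 CPM at D0 (2.41 ± 0.31). The ligand Wnt10a had 205 and 183 CPM at D1, against 43.5 and 39.7 CPM at D0 (2.22 ± 0.38), with an edgeR adjusted p of 0.0506 without D1 replicate 1. On the inhibitor side, Sfrp1, a secreted protein that binds Wnt ligands, had 8.82 and 8.54 CPM at D1, against 72.9 and 74.1 CPM at D0 (-3.04 ± 0.36). Dkk3, of the Dickkopf family, had 13.7 and 16.4 CPM at D1, against 124 and 89.1 CPM at D0 (-2.87 ± 0.38). Ctnnb1, the beta-catenin gene, was not called, at 736 and 763 CPM at D1, against 758 and 732 CPM at D0 (0.01 ± 0.24).

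Promoter sequences from RefSeq (GRCm38.p6) were searched for 9 short motifs, on both strands, in windows of 250 bases before to 50 bases after each start. The windows printed below were picked after their matches were seen, one or more for each pathway in which a called gene held its pathway's letters. They show the bases before the start only, 5′ to 3′ on the gene's strand, with the match in capitals. Sp5, a zinc finger factor that Wnt signalling induces, had 14.6 and 28.5 CPM at D1, against 3.91 and 2.99 CPM at D0 (2.47 ± 0.47, edgeR adjusted p = 0.00457). Its call was lost without the block (edgeR adjusted p = 0.073) or without D0 replicate 2 (0.0958). Sp5 and Tcf7 lie outside the rule by which the other genes were named and were chosen after their values were seen. The Sp5 window at chr2:70474673-70474922 (plus strand) holds the TCF/LEF letters ATCAAAG, here on the other strand, beginning 104 bases before the start.
Sp5: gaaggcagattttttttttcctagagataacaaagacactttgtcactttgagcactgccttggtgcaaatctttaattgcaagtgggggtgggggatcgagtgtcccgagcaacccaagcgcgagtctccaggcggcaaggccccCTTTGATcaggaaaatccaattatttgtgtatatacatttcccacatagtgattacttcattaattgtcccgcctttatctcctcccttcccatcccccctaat
These letters stood in the window of 2 of the 5 called-higher Wnt targets that have one, in 3 of 15 tested targets and in 2.94% of 9645 tested genes. The windows of Axin2, Nkd1 and Tcf7 held none.

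Socs3, the feedback inhibitor that STAT3 induces, rose. It had 128 and 161 CPM at D1, against 20.5 and 26.9 CPM at D0 (2.61 ± 0.25, edgeR adjusted p = 5.60e-05), with the D1 libraries above the D0 libraries by a wide margin. Stat3 had 186 and 267 CPM at D1, against 161 and 183 CPM at D0 (0.37 ± 0.22). Lifr, the LIF receptor, had 27.996 and 21.3 CPM at D1, against 13.2 and 15.7 CPM at D0 (0.79 ± 0.35). Il6st, the shared gp130 chain, had 129 and 134 CPM at D1, against 234 and 260.5 CPM at D0 (-0.91 ± 0.28); none of these 3 was called. Pim1, a kinase gene that STAT3 also induces, went the other way at 10.04 and 29.2 CPM at D1, against 48.4 and 86.8 CPM at D0 (-1.90 ± 0.37, edgeR adjusted p = 0.00516). Its call was lost without the block (edgeR adjusted p = 0.12), without D1 replicate 1 (0.13) and without D0 replicate 1 (0.0515). Over the whole list of 17 tested genes, 3 rose, 1 fell and the median was -0.50. With single libraries left out the calls were 1, 3, 1 and 1 higher, with 1, 1, 0 and 2 lower, and the median was -0.46 to -0.039. The Socs3 window at chr11:117969367-117969616 (minus strand) holds the STAT letters TTCNNNGAA beginning 154 bases before the start; 8.04% of tested genes hold them.
Socs3: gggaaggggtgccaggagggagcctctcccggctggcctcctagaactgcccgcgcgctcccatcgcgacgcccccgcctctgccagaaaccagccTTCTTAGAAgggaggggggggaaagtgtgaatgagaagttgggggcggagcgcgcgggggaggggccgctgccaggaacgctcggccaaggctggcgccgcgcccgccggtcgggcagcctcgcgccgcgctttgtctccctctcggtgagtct

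Many TGF-beta targets and feedback genes fell. TGF-beta ligands act through Smad proteins in fibroblasts to raise matrix, protease inhibitor and inhibitory Smad genes. Of 20 tested members 10 fell and none rose by edgeR over all 10 libraries, DESeq2 or limma-voom, although 2 had a positive change with an unadjusted p under 0.05, and the list's median was -1.11. Inhba, the activin A subunit gene, had 21.3 and 44.8 CPM at D1, against 299.9 and 273 CPM at D0, a change of -3.23 ± 0.39 (edgeR adjusted p = 2.35e-04). Smad6, an inhibitory Smad, had 16.1 and 25.6 CPM at D1, against 82.7 and 109 CPM at D0 (-2.23 ± 0.30). Replicate 2 was the higher of the D1 libraries for both, but no D1 value came near a D0 value. The ligand gene Tgfb2 had 14.3 and 17.8 CPM at D1, against 48.9 and 57.6 CPM at D0 (-1.73 ± 0.30), with an edgeR adjusted p of 0.0587 without D1 replicate 1 and 0.0547 without D0 replicate 1. Without D1 replicate 1, D1 replicate 2, D0 replicate 1 and D0 replicate 2 in turn, 4, 6, 3 and 5 members were called lower, and without the block 4. The fit on D1 and D0 alone called 15 lower and 2 higher.

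The BMP list split, with 4 higher and 6 lower of 25. With single libraries left out the calls were 2, 2, 2 and 2 higher, with 2, 4, 3 and 4 lower; without the block 2 higher and 3 lower. Dlx3, a homeobox gene of ectoderm and placenta, had 88.9 and 117 CPM at D1, against 13.2 and 14.97 CPM at D0 (2.84 ± 0.28, edgeR adjusted p = 6.88e-05). Hey1, a repressor that both BMP and Notch signals induce, had 29.2 and 46.2 CPM at D1, against 2.45 and 8.23 CPM at D0 (2.94 ± 0.41). Among those lower, the helix-loop-helix factor gene Atoh8 had 3.96 and 7.83 CPM at D1, against 45.01 and 100.3 CPM at D0 (-3.58 ± 0.45). Id3, an inhibitor of helix-loop-helix factors and a direct BMP target, had 39.6 and 85.4 CPM at D1, against 179 and 215 CPM at D0 (-1.74 ± 0.27), with an edgeR adjusted p of 0.0569 without D1 replicate 1. In the Notch list 2 of 15 genes rose, Hey1 and Hey2, so 13.3% were called, near the 10.6% of all tested genes. None fell by edgeR over all 10 libraries, with 1 negative at an unadjusted p under 0.05. DESeq2 and edgeR with no filter each called 1 lower, and edgeR on D1 and D0 alone called 2. Hey2 had 6.999 and 14.9 CPM at D1, against 0.489 and 0.748 CPM at D0, a ratio of 15.8 on 44 counts at D1 and 2 at D0 with an exact 95% interval of 4.13 to 135. It lost its call without D1 replicate 2 (edgeR adjusted p = 0.0755), D0 replicate 1 (0.10) or D0 replicate 2 (0.0802).

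Of 11 tested genes of the Hedgehog pathway 3 fell and 1 rose. The coreceptor gene Gas1 fell, at 13.7 and 24.9 CPM at D1, against 93.9 and 169 CPM at D0 (-2.76 ± 0.33, edgeR adjusted p = 2.17e-04). The coreceptor gene Boc also fell, at 10.96 and 17.1 CPM at D1, against 64.6 and 92.8 CPM at D0 (-2.50 ± 0.31). Ptch1, the receptor gene that the pathway itself induces, was not called, at 69.7 and 55.5 CPM at D1, against 52.4 and 55.4 CPM at D0 (0.22 ± 0.29).

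**Figure D3:**
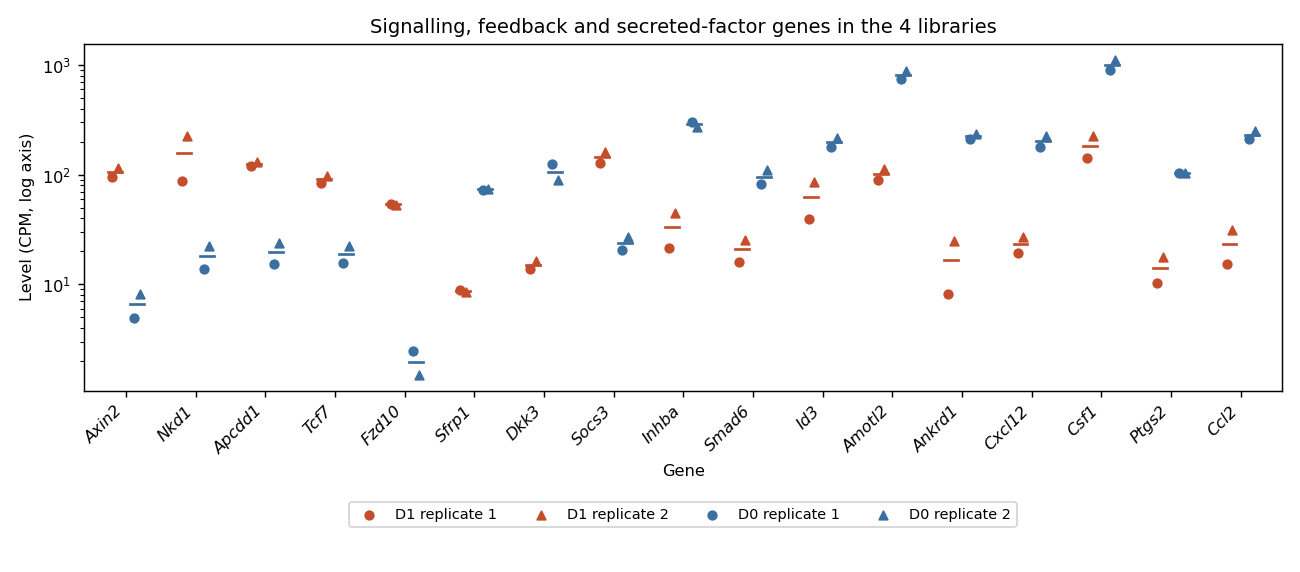
Level of 17 signalling, feedback and secreted-factor genes in CPM (log axis) in each library, with D1 in red to the left of D0 in blue for every gene. Circles are replicate 1, triangles replicate 2, and bars the mean of both. For Axin2 the D1 libraries sit at 95.2 and 116 CPM and the D0 libraries at 4.89 and 8.23 CPM, and no gene shown has overlapping days.

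Falls outnumbered rises among YAP targets, secreted inflammatory factors and extracellular proteases. YAP and TAZ are coactivators that enter the nucleus in spread cells under tension and act with TEAD factors. Of 20 tested targets 10 fell and none rose by edgeR over all 10 libraries, DESeq2 or limma-voom, with 0 positive at an unadjusted p under 0.05. Amotl2, an angiomotin that binds YAP, had 88.9 and 113 CPM at D1, against 745 and 872 CPM at D0 (-3.01 ± 0.24, edgeR adjusted p = 1.49e-05). Ankrd1, a nuclear ankyrin repeat protein, had 8.22 and 24.9 CPM at D1, against 211 and 235 CPM at D0 (-4.05 ± 0.50). F3, tissue factor, had 23.7 and 31.3 CPM at D1, against 239.7 and 232 CPM at D0 (-3.13 ± 0.40). Crim1, a membrane protein that binds BMPs, had 32.9 and 55.5 CPM at D1, against 196 and 317 CPM at D0 (-2.55 ± 0.34). The counts without D1 replicate 1, D1 replicate 2, D0 replicate 1 and D0 replicate 2 were 7, 7, 6 and 8, and 6 without the block.

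Of 20 tested secreted inflammatory and senescence-associated factors, 10 fell and 1 rose, with a median of -1.36. The chemokine Cxcl12 had 19.5 and 27.04 CPM at D1, against 178 and 224 CPM at D0 (-3.12 ± 0.30, edgeR adjusted p = 6.06e-05). Csf1, the macrophage growth factor, had 142 and 224 CPM at D1, against 897 and 1115 CPM at D0 (-2.49 ± 0.25). Ptgs2 (cyclooxygenase-2) had 10.3 and 17.8 CPM at D1, against 103 and 103 CPM at D0 (-2.95 ± 0.32). The monocyte chemokine Ccl2 had 15.2 and 31.3 CPM at D1, against 211 and 252 CPM at D0 (-3.49 ± 0.49), with an edgeR adjusted p of 0.055 without the block. Of 25 tested interferon-stimulated genes 1 was called higher and 1 lower, 8% against 10.6% of all tested genes. The one higher was Ifitm1, a membrane protein also found in early embryonic and germ cells, at 64.2 and 75.4 CPM at D1, against 6.85 and 5.24 CPM at D0 (3.47 ± 0.32, edgeR adjusted p = 4.99e-05). Adam, Adamts, Mmp and Timp genes gave 14 lower and 2 higher of 41. The proteoglycan-cleaving Adamts9 had 22.8 and 24.9 CPM at D1, against 149 and 119 CPM at D0 (-2.50 ± 0.26). Adamts1, of the same kind, had 26.5 and 32.02 CPM at D1, against 130.1 and 154 CPM at D0 (-2.27 ± 0.27). Adam11, a family member without protease activity, went the other way at 80.03 and 46.2 CPM at D1, against 6.36 and 5.99 CPM at D0 (3.36 ± 0.53). With each of D1 replicates 1 and 2 and D0 replicates 1 and 2 left out in turn, the lower calls were 5, 5, 4 and 8 for the secreted factors and 6, 7, 5 and 9 for the proteases, and without the block 5 and 6.

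Some immediate early and growth factor feedback genes fell, among them Fosl2 of the Fos family, but Fos and Jun were not called. Of 25 immediate early genes tested, 6 fell and 1 rose (median -0.61, and -0.94 to -0.043 with single libraries left out). Klf6, a zinc finger gene switched on by growth factors and injury, had 31.3 and 59.8 CPM at D1, against 149.7 and 153 CPM at D0 (-1.82 ± 0.27, edgeR adjusted p = 9.87e-04). Fos had 61.2 and 104 CPM at D1, against 36.2 and 29.2 CPM at D0 (1.19 ± 0.39, edgeR adjusted p = 0.0786). Jun had 85.8 and 140.2 CPM at D1, against 134 and 154 CPM at D0 (-0.42 ± 0.29). Egr1 had 165 and 381 CPM at D1, against 238 and 294 CPM at D0 (-0.16 ± 0.35). For Fos the D1 libraries were both above the D0 libraries, and for Jun and Egr1 the days overlapped. In the list of ERK and FGF feedback genes 7 of 21 fell and 1 rose. Errfi1, a feedback inhibitor of the EGF receptor, had 61.5 and 91.8 CPM at D1, against 248 and 221 CPM at D0 (-1.66 ± 0.26), with an edgeR adjusted p of 0.0569 without D1 replicate 1. Without the block 1 immediate early and 2 feedback genes were called lower. Without D1 replicate 1, D1 replicate 2, D0 replicate 1 and D0 replicate 2 the lower calls were 2, 4, 3 and 5 for the first list and 0, 2, 1 and 3 for the second, and the higher calls 0, 0, 2 and 0 and 0, 0, 0 and 0.

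Srf encodes serum response factor, which drives many immediate early and cytoskeletal genes through CArG boxes, including its own gene. It had 38.6 and 55.5 CPM at D1, against 100.3 and 160.2 CPM at D0 (-1.45 ± 0.23, edgeR adjusted p = 0.00133, and 0.0642 without the block). Its window at chr17:46556163-46556412 (minus strand) holds 2 CArG boxes, beginning 82 and 62 bases before the start.
Srf: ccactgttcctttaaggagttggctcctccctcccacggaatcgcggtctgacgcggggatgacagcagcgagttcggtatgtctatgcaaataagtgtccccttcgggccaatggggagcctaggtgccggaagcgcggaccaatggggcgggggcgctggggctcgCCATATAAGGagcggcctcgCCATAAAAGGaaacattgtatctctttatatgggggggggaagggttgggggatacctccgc
A CArG box stood in the window of 29 of 514 called-lower genes that have one (5.64%), 6 of them in the contractile list, and of 7 of 483 called-higher genes (1.45%), against 1.6% of 9645 tested genes. Windows with the AP-1 letters TGANTCA were 8.56% among called-lower, 5.59% among called-higher and 5.65% among tested genes. In the same order, the shares were 9.34%, 13.0% and 12.1% for the E-box CACGTG and 0.389%, 0% and 0.29% for the Esrrb letters TCAAGGTCA. They were 16.1%, 14.9% and 16.8% for the antioxidant letters TGACNNNGC. A match is a description of letters and not a binding site.

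Sterol and fatty acid synthesis genes were called higher more often than lower. The sterol pathway makes cholesterol from acetyl-CoA, and its genes and the desaturase and fatty acid synthase genes are raised by SREBP factors when cells lack sterol. Of 31 tested sterol genes 12 rose and 1 fell, 28 had a positive change and the median was 0.73. Acat2, the cytosolic acetoacetyl-CoA thiolase at the entry to the pathway, had 164 and 182 CPM at D1, against 76.8 and 68.9 CPM at D0 (1.25 ± 0.25, edgeR adjusted p = 0.0062). Its call was lost without D1 replicate 2 (edgeR adjusted p = 0.0737), D0 replicate 1 (0.0741) or D0 replicate 2 (0.0874). The sterol efflux gene Abca1 fell, at 20.7 and 23.5 CPM at D1, against 47.5 and 59.1 CPM at D0 (-1.27 ± 0.29). Its call was lost without the block (edgeR adjusted p = 0.0516), without any one of the 4 libraries (0.0904 to 0.19) and by limma on TPM (limma adjusted p = 0.19). Without the block 3 sterol genes were called higher. Without D1 replicate 1, D1 replicate 2, D0 replicate 1 and D0 replicate 2 the counts were 2, 2, 1 and 1. The sterol letters ATCACNCCA stood in none of the 8 called-higher sterol gene windows and in 0.643% of tested genes.

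Of 22 fatty acid genes 8 rose and 1 fell (median 0.67; 5, 2, 2 and 2 higher without each library in the order above). Mlxipl, which encodes the carbohydrate-responsive factor ChREBP, had 12.2 and 13.52 CPM at D1, against 0 and 2.245 CPM at D0, a ratio of 14.2 on 59 counts at D1 and 3 at D0 with an exact 95% interval of 4.62 to 70.7. Acacb, the mitochondrial acetyl-CoA carboxylase, had 81.6 and 58.3 CPM at D1, against 9.79 and 14.97 CPM at D0 (2.57 ± 0.37, edgeR adjusted p = 7.56e-04). On the deposited TPM the limma adjusted p was 0.11. Scd1, the delta-9 desaturase, had 585 and 914 CPM at D1, against 219 and 294 CPM at D0 (1.53 ± 0.29), with edgeR adjusted p of 0.0541, 0.0756 and 0.056 without D1 replicate 2, D0 replicate 1 and D0 replicate 2. The gene of the opposite process, Cpt1a, which admits fatty acids to mitochondria for oxidation, was also higher, at 334 and 158 CPM at D1, against 47.5 and 38.9 CPM at D0 (2.51 ± 0.36, edgeR adjusted p = 6.88e-04). In the list of lipid breakdown genes 4 of 21 rose and none fell by edgeR over all 10 libraries or DESeq2, with 0 negative at an unadjusted p under 0.05 and 1 called lower in the fit on D1 and D0 alone. Leaving out single libraries, it gave 1, 4, 3 and 2 higher; without the block 2 higher.

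Glycolysis and hypoxia genes moved in both directions. Pdk1, a kinase that inhibits pyruvate dehydrogenase, had 477 and 209.9 CPM at D1, against 22.995 and 15.7 CPM at D0 (4.09 ± 0.32, edgeR adjusted p = 1.49e-05). The glucose transporter gene Slc2a3 had 96.8 and 78.3 CPM at D1, against 16.1 and 20.96 CPM at D0 (2.24 ± 0.32). Ldhb, the lactate dehydrogenase subunit of oxidative tissues, had 2053 and 1493 CPM at D1, against 403 and 364 CPM at D0 (2.23 ± 0.42), with edgeR adjusted p of 0.10 without D1 replicate 1 and 0.072 without D0 replicate 2. Adm, the adrenomedullin gene and a hypoxia target, had 6.09 and 7.11 CPM at D1, against 60.2 and 76.3 CPM at D0 (-3.34 ± 0.39). Bnip3, a mitophagy gene of the same response, had 1.52 and 1.42 CPM at D1, against 15.2 and 15.7 CPM at D0 (-3.57 ± 0.67). Its edgeR adjusted p was 0.0692 without the block and 0.23 without D1 replicate 1, and the limma adjusted p on TPM was 0.10. Ldha, the other lactate dehydrogenase subunit, was not called at 548 and 661 CPM at D1, against 736 and 882 CPM at D0 (-0.42 ± 0.24). In all 8 of 39 genes rose, Egln3 and Ddit4 among them, and 6 fell. Leaving out D1 replicate 1, D1 replicate 2, D0 replicate 1 and D0 replicate 2 in turn, the higher calls were 3, 4, 3 and 2 and the lower calls 1, 4, 5 and 2.

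Amino acid genes, many of them targets of the stress factor ATF4, were called in both directions. Ass1, argininosuccinate synthase, which makes the precursor of arginine from citrulline, had 3911 and 3510.4 CPM at D1, against 449 and 469 CPM at D0 (3.03 ± 0.32, edgeR adjusted p = 9.87e-05). Slc1a5, a glutamine transporter, had 249 and 247 CPM at D1, against 39.1 and 31.4 CPM at D0 (2.79 ± 0.31). Asns, asparagine synthetase and a classical ATF4 target, had 36.5 and 36.3 CPM at D1, against 72.9 and 86.1 CPM at D0 (-1.14 ± 0.29, edgeR adjusted p = 0.0269). Pycr1, a proline synthesis enzyme, had 0.609 and 1.42 CPM at D1, against 6.85 and 6.74 CPM at D0 (-2.86 ± 0.75). Trib3, a pseudokinase of the same response, had 0 and 2.13 CPM at D1, against 10.3 and 10.5 CPM at D0. Aldh1l2, a mitochondrial folate enzyme, had 3.04 and 2.13 CPM at D1, against 29.8 and 32.2 CPM at D0 (-3.48 ± 0.53). Atf4 was not called at 134 and 171 CPM at D1, against 228 and 222 CPM at D0 (-0.58 ± 0.26). The calls of Asns and Pycr1 were lost without the block, by limma on TPM and without any one of the 4 libraries. Without a library the edgeR adjusted p was 0.0623 to 0.31 for Asns and 0.0819 to 0.30 for Pycr1, and limma-voom gave 0.0677 for Pycr1. That of Trib3 was lost without the block (edgeR adjusted p = 0.0655), D1 replicate 1 (0.20) or D0 replicate 1 (0.13), and that of Aldh1l2 by limma on TPM (limma adjusted p = 0.11). Of 46 tested genes 4 rose and 7 fell; without D1 replicate 1, D1 replicate 2, D0 replicate 1 and D0 replicate 2 the lower calls were 1, 2, 1 and 2 and the higher calls 2, 2, 2 and 3. ER chaperones gave 0 higher and 1 lower of 29, with 10 lower at an unadjusted p under 0.05 and 0 called lower when any one library was left out.

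The amino acid response element, written TGATGNAA, stood in the windows of 4 of the 6 called-lower members of this list that have one, of none of its 3 called-higher members, of 12 of 38 tested members and of 2.55% of 9645 tested genes. The Asns window at chr6:7693210-7693459 (minus strand) holds it beginning 23 bases before the start, and the Pycr1 window at chr11:120643749-120643998 (minus strand) 103 bases before it.
Asns: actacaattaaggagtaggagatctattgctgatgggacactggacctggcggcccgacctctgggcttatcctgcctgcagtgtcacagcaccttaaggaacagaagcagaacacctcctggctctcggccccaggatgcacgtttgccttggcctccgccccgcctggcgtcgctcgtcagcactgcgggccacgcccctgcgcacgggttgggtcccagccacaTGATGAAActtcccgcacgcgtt
Pycr1: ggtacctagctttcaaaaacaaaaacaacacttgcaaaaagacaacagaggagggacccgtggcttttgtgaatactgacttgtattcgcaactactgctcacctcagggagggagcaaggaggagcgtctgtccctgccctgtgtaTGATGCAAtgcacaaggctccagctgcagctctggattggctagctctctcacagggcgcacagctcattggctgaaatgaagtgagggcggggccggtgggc

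Among solute carriers and ion channels, more genes rose than fell. Of 197 tested solute carriers 34 rose and 5 fell. Slc26a2, a sulfate transporter, had 301 and 162 CPM at D1, against 32.8 and 22.5 CPM at D0 (3.04 ± 0.33, edgeR adjusted p = 1.03e-04). Slc16a6, a monocarboxylate carrier, had 87.03 and 89.6 CPM at D1, against 7.83 and 3.74 CPM at D0 (3.85 ± 0.45). Slc7a7, a carrier of cationic amino acids, had 63.6 and 70.4 CPM at D1, against 3.42 and 5.24 CPM at D0 (3.98 ± 0.54). Without the block 17 carriers were called higher, and without D1 replicate 1, D1 replicate 2, D0 replicate 1 and D0 replicate 2 10, 26, 12 and 13 (lower calls 1 without the block and 0, 2, 1 and 0 without the libraries). Of 60 tested channels 11 rose and 3 fell. The channel calls were 5, 10, 7 and 6 higher, with 0, 1, 1 and 1 lower with single libraries left out, and 7 higher and 1 lower without the block. The inward rectifier gene Kcnj12 had 28.9 and 34.9 CPM at D1 and no count at D0, at least 34.6-fold higher at D1 over the floor of 3 counts. Kcnq1, a voltage-gated potassium channel of heart and epithelia, had 62.1 and 46.2 CPM at D1, against 0.979 and 0.748 CPM at D0, a ratio of 64.6 on 269 counts at D1 and 3 at D0 with an exact 95% interval of 21.9 to 315. Clcn2, a chloride channel, had 62.99 and 57.6 CPM at D1, against 13.2 and 5.99 CPM at D0 (2.57 ± 0.39). Intervals and floors cover counting error only.

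Iron, selenium and lysosome lists held called genes in both directions. Steap3, a ferrireductase of endosomes, had 189.6 and 226 CPM at D1, against 20.1 and 14.2 CPM at D0 (3.52 ± 0.45, edgeR adjusted p = 3.33e-04). Selenop, the secreted selenium carrier, had 179.5 and 75.4 CPM at D1, against 15.7 and 15.7 CPM at D0 (2.999 ± 0.38). Gsta4, which detoxifies lipid aldehydes, had 101 and 71.9 CPM at D1, against 15.2 and 18.7 CPM at D0 (2.36 ± 0.31). Tfeb, a regulator of lysosome genes, had 89.2 and 104 CPM at D1, against 14.2 and 20.96 CPM at D0 (2.51 ± 0.36). Of 20 metal handling genes 3 rose and 1 fell, and of 16 selenoproteins 2 rose and 2 fell. Antioxidant genes gave 3 higher and 0 lower of 38 by edgeR and by DESeq2 4 higher and 0 lower, with 3 lower at an unadjusted p under 0.05. Lysosome and autophagy genes gave 3 higher and 1 lower of 27. The shares called in these lists were 20%, 25%, 7.89% and 14.8%, against 10.6% of all tested genes. With single libraries left out the higher calls were 2, 3, 1 and 1 for metal handling, 1, 2, 1 and 1 for selenoproteins, 2, 2, 1 and 1 for antioxidant and 1, 1, 1 and 1 for lysosome genes.

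**Figure D4:**
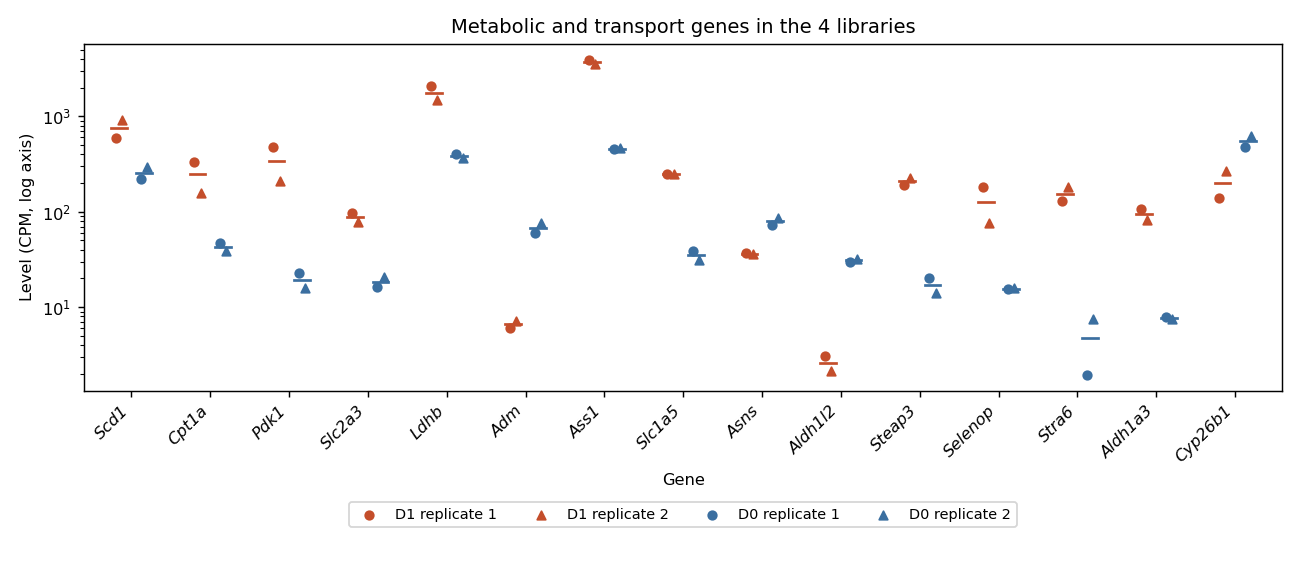
Level of 15 metabolic and transport genes in CPM (log axis) in each library, with D1 in red to the left of D0 in blue for every gene. Circles are replicate 1, triangles replicate 2, and bars the mean of both; for Pdk1 the D1 libraries sit at 477 and 209.9 CPM and the D0 libraries at 22.995 and 15.7 CPM, the days lie closer for Asns, and no gene shown has overlapping days.

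Genes that make, take up and degrade retinoic acid were called in different directions. Stra6, the receptor that takes up retinol from its binding protein, had 128 and 181 CPM at D1, against 1.96 and 7.48 CPM at D0 (5.15 ± 0.41, edgeR adjusted p = 1.49e-05). Aldh1a3, which oxidises retinal to retinoic acid, had 107 and 82.5 CPM at D1, against 7.83 and 7.48 CPM at D0 (3.63 ± 0.44). Cyp26b1, which degrades retinoic acid, had 139 and 265 CPM at D1, against 475 and 614 CPM at D0 (-1.51 ± 0.26). Its call was lost without the block (edgeR adjusted p = 0.12), D1 replicate 1 (0.073) or D0 replicate 1 (0.0686). Tgm2, a transglutaminase that retinoic acid induces, had 15.2 and 96.8 CPM at D1, against 156 and 616 CPM at D0 (-2.93 ± 0.32). Replicate 2 was several times above replicate 1 on both days, and without the block the edgeR adjusted p was 0.12. Of 18 tested genes of the list 3 rose and 5 fell. Leaving out single libraries, the list gave 2, 3, 2 and 2 higher, with 1, 2, 2 and 2 lower; without the block 2 higher and 0 lower. Other aldehyde dehydrogenases rose too. Aldh4a1 of proline breakdown had 172 and 199 CPM at D1, against 45.99 and 44.2 CPM at D0 (2.02 ± 0.25). Aldh1l1 of folate metabolism had 42.3 and 88.2 CPM at D1, against 2.45 and 13.47 CPM at D0 (3.17 ± 0.48). The family gave 5 higher and 2 lower of 15 (with single libraries left out 4, 4, 4 and 3 higher, with 1, 1, 1 and 1 lower; without the block 4 higher and 1 lower).

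Most imprinted genes that were called fell. These genes are expressed from the copy of one parent and many act on fetal growth. Of 24 tested 9 fell and 2 rose (median -0.60; 4, 3, 6 and 5 lower without D1 replicate 1, D1 replicate 2, D0 replicate 1 and D0 replicate 2, and 5 without the block). The median was -0.95 to -0.58 with single libraries left out. Meg3, a noncoding RNA of the imprinted domain on chromosome 12, had 73.03 and 35.6 CPM at D1, against 340.0 and 238 CPM at D0 (-2.42 ± 0.30, edgeR adjusted p = 2.72e-04). Rian, a noncoding RNA of the same domain, had 154 and 51.9 CPM at D1, against 415 and 285 CPM at D0 (-1.85 ± 0.34). Dlk1, a Notch-like growth regulator there, had 99.5 and 137 CPM at D1, against 309.7 and 460.3 CPM at D0 (-1.69 ± 0.29). Both lost their calls without the block (edgeR adjusted p = 0.0918 for Rian and 0.0713 for Dlk1) and without D1 replicate 2 (0.0741 and 0.0528). On chromosome 7, Peg3, a zinc finger gene, had 56.9 and 77.6 CPM at D1, against 423 and 541 CPM at D0 (-2.85 ± 0.49; edgeR adjusted p = 0.0621 without D1 replicate 1). Its neighbour Zim1 had 4.26 and 0.711 CPM at D1, against 36.7 and 21.7 CPM at D0 (-3.39 ± 0.55). H19, a growth-restraining noncoding RNA, was not called, at 8227 and 9638 CPM at D1, against 7197 and 7991 CPM at D0. The growth factor gene Igf2 was not called either, at 3071 and 4218 CPM at D1, against 4179 and 5190.5 CPM at D0. The 2 that rose were Nnat and Cdkn1c. Nnat, a small membrane protein of brain and other tissues, had 107 and 78.97 CPM at D1, against 10.8 and 14.2 CPM at D0 (2.92 ± 0.38). Cdkn1c, the cell cycle inhibitor p57, had 864 and 849 CPM at D1, against 230.4 and 138 CPM at D0 (2.20 ± 0.38).

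Pluripotency genes were called in both directions, and Pou5f1 and Nanog had few counts. Sox2, a core pluripotency and neural factor, had 90.7 and 68.3 CPM at D1, against 6.85 and 6.74 CPM at D0 (3.57 ± 0.31, edgeR adjusted p = 3.53e-05). Pou5f1 (Oct4) had 7.303 and 1.42 CPM at D1, against 0 and 3.74 CPM at D0, and Nanog had 10.04 and 0.711 CPM at D1, against 0 and 1.497 CPM at D0. Neither was called, and both differed widely between the D1 libraries. Klf2, a factor of naive pluripotency that is also shear-responsive, had 0.913 and 0.711 CPM at D1, against 11.3 and 20.2 CPM at D0 (-4.10 ± 0.59). Klf4 had 7.91 and 22.8 CPM at D1, against 32.3 and 47.2 CPM at D0 (-1.50 ± 0.40). Its call was lost without the block (edgeR adjusted p = 0.11), D1 replicate 1 (0.43), D0 replicate 1 (0.10) or D0 replicate 2 (0.23) and by limma on TPM (limma adjusted p = 0.0701). Of 33 tested genes 5 rose and 2 fell, but 9 of the 33 had no count in any D0 or D1 library. Under the stricter filter, set on D0 and D1 only, 8 were tested, with 3 higher and 2 lower. In the Klf family 1 rose and 5 fell of 14. With single libraries left out the pluripotency calls were 2, 3, 1 and 3 higher, with 1, 2, 1 and 1 lower; without the block 3 higher and 1 lower. For the Klf family they were 0, 0, 0 and 0 higher, with 3, 4, 3 and 3 lower; without the block 0 higher and 3 lower.

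Hox genes were not called, and some limb and mesenchyme factors fell. None of 30 tested Hox genes was called by edgeR over all 10 libraries or DESeq2, with 4 lower at an unadjusted p under 0.05 and 1 called lower by limma-voom. The fit on D1 and D0 alone called 5 lower and 1 higher. Of 63 limb and mesenchyme factors 11 fell and 2 rose, 20.6% called against 10.6% of all tested genes. Without D1 replicate 1, D1 replicate 2, D0 replicate 1 and D0 replicate 2 the lower calls were 2, 2, 2 and 3 and the higher calls 0, 0, 0 and 0; without the block 1 was called lower and 0 higher. Nfix, a nuclear factor I gene, had 18.6 and 31.3 CPM at D1, against 114 and 252 CPM at D0 (-2.83 ± 0.31, edgeR adjusted p = 1.33e-04). Prrx2, a paired-related homeobox gene, had 12.5 and 29.9 CPM at D1, against 87.1 and 115 CPM at D0 (-2.40 ± 0.37; edgeR adjusted p = 0.0707 without the block). Among 92 histone and DNA modifiers 3 rose and 4 fell, 7.61% against 10.6% of all genes (2, 1, 1 and 1 higher, with 0, 0, 0 and 1 lower with single libraries left out). Kdm2b, a histone demethylase that recruits Polycomb proteins to CpG islands, had 226 and 290.3 CPM at D1, against 48.9 and 74.8 CPM at D0 (2.07 ± 0.24, edgeR adjusted p = 1.70e-04).

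All 37 tested mitosis genes had a negative change, with a median of -0.65, and 21 had an unadjusted p under 0.05. The 4 that fell were Ndc80, Prc1, Anln and Kif20a, 10.8% against 5.32% of all tested genes called lower. None of these was called without the block, and the lower calls were 0, 0, 1 and 0 with single libraries left out, but the fit on D1 and D0 alone called 29 lower. Kif20a, a mitotic kinesin, had 109.9 and 122 CPM at D1, against 205 and 225 CPM at D0 (-0.90 ± 0.26; edgeR adjusted p 0.10 to 0.44 without single libraries). In the replication list 2 of 44 rose and none fell by edgeR over all 10 libraries or DESeq2, with 1 lower at an unadjusted p under 0.05 (median -0.0030, and -0.16 to 0.18 with single libraries left out). The fit on D1 and D0 alone called 4 higher and 1 lower. Nuclear respiratory chain genes had a median of 0.43 with 78 of 85 positive and 3 called higher, none of them without the block or without any one of the 4 libraries; 19 had an unadjusted p under 0.05, and the fit on D1 and D0 alone called 44. The mitochondrially encoded share of reads was also higher at D1 (4.94% and 3.27%, against 2.81% and 2.21% at D0), and its part was not tested. Cytosolic ribosomal protein genes gave 1 higher of 79 (median 0.10, and 0.068 to 0.20 with single libraries left out, when 0 were called). Proteasome genes gave 0 of 37 by edgeR, DESeq2 and limma-voom, with 1 at an unadjusted p under 0.05; the fit on D1 and D0 alone called 2 higher and 1 lower.

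The 15 largest rises among called genes of at least 10 CPM at D1, outside the matrix, contractile and epithelial lists, were all genes with 2 counts or fewer over both D0 libraries. Tdh, threonine dehydrogenase, an enzyme that mouse embryonic stem cells depend on, had 147 and 74.7 CPM at D1, against 0 and 1.497 CPM at D0, a ratio of 211 on 587 counts at D1 and 2 at D0 with an exact 95% interval of 58.3 to 1750. Lmo2, a blood and endothelial transcriptional adaptor, had 34.1 and 73.99 CPM at D1, against 0.489 and 0 CPM at D0, a ratio of 156 on 216 counts at D1 and 1 at D0 (27.6 to 6174). Kcna2, a potassium channel, had 19.5 and 34.2 CPM at D1 and C1ql2, a synaptic C1q-like protein, 17.6 and 19.2 CPM, both with no count at D0 and at least 26.9-fold and 20.4-fold higher at D1. Others were Kcnj12 and Mixl1, given above, and Cabp7, Btn1a1, Zyg11a, Bhlha15, Hba-a2, Brinp2, Psd2 and Ccdc88b. Hba-a2 shares reads with a near-identical copy, and its level is uncertain. Its call was also lost without the block (edgeR adjusted p = 0.12), without D0 replicate 2 (0.20) and by limma-voom (adjusted p = 0.0548). Without D0 replicate 1 the calls of Btn1a1, Zyg11a, Bhlha15, Brinp2 and Hba-a2 were lost, and without D1 replicate 1 those of Bhlha15, Brinp2 and Hba-a2 (edgeR adjusted p 0.0535 to 0.0873 for the first 4).

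The 15 largest falls by the same rule included Ankrd1, Klf2 and Trib3, given above. Others were the chemokine gene Ccl7, Siglecg, Lrrc17, Medag, C1qtnf3, Spon2, Dnm3os, Tgfb1i1, Cx3cl1 and Hsp25-ps1, a pseudogene that shares reads with its parent gene. Tgfb1i1, the focal adhesion adaptor Hic-5, had 7.61 and 17.8 CPM at D1, against 193 and 173 CPM at D0 (-4.06 ± 0.45, edgeR adjusted p = 1.38e-04). Spon2, a secreted pattern recognition protein, had 2.43 and 7.83 CPM at D1, against 51.4 and 179 CPM at D0 (-4.44 ± 0.34). Cx3cl1 (fractalkine) had 3.35 and 10.7 CPM at D1, against 71.9 and 82.3 CPM at D0 (-3.65 ± 0.40). Dnm3os, a noncoding RNA that hosts microRNAs of mesenchyme, had 6.39 and 0 CPM at D1, against 98.8 and 42.7 CPM at D0 (-4.22 ± 0.65), with an edgeR adjusted p of 0.0629 without D0 replicate 1. Siglecg and C1qtnf3 lost their calls without any one of the 4 libraries, Lrrc17 without D1 replicate 1 or D0 replicate 1, Ccl7 without D0 replicate 1, and Hsp25-ps1 without either D1 library, without the block, under the stricter filter, by DESeq2 and by limma-voom.

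The later days show which of these levels lasted; genes were chosen on their D1 values, so this is a description with no test. Of the 672 genes higher at D1, the mean over D0 to D7 peaked at D1 in 245, at D3 in 270, at D5 in 86 and at D7 in 71. By D7 273 of them had passed the midpoint (on a log scale) back towards D0. Of the 678 lower genes 135 had done so. Axin2 averaged 6.56, 106, 81.4, 97.1 and 83.97 CPM from D0 to D7 and stayed up, and Sp5 averaged 3.45, 21.5, 92.2, 119 and 63.5 CPM. Ass1 averaged 459, 3711, 4846, 1800.0 and 482 CPM over the same days, and so was back near its starting level at D7. Klf2 averaged 15.7, 0.812, 17.8, 95.9 and 121 CPM, a dip at D1 before its rise.

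**Figure D5:**
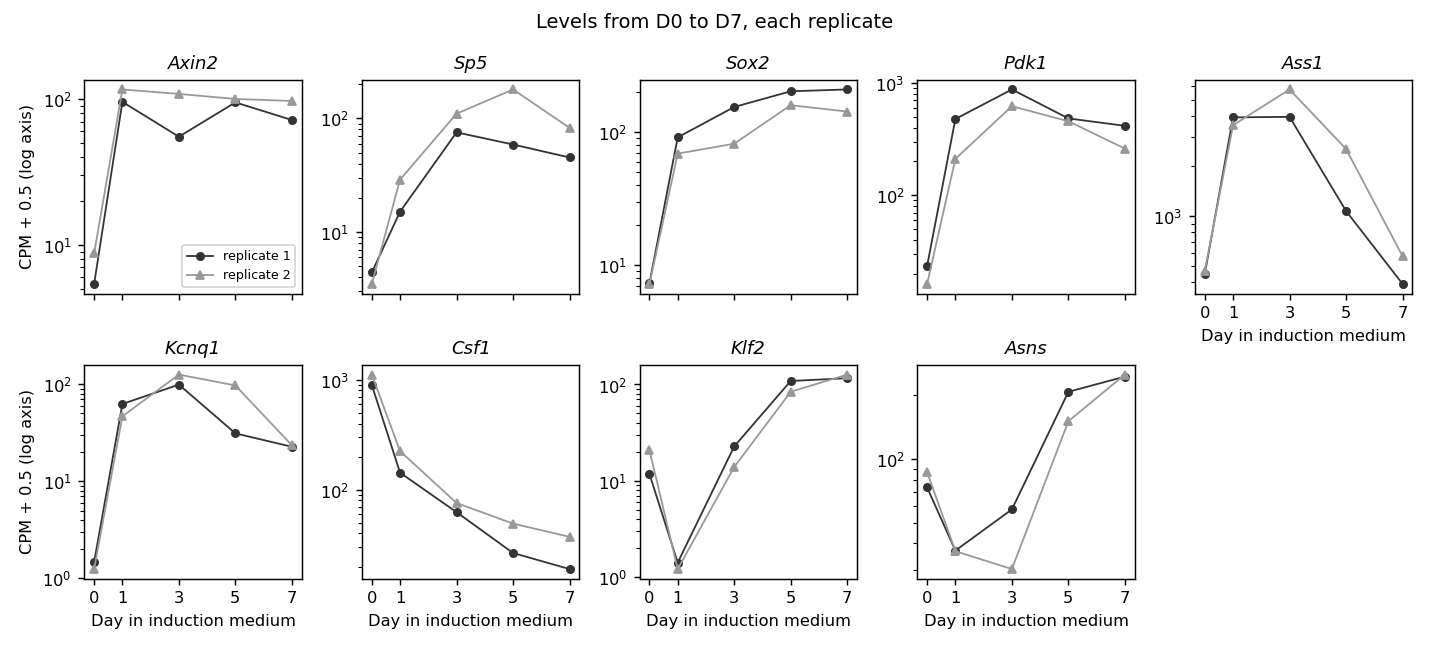
Level of 9 genes at D0, D1, D3, D5 and D7 in each replicate (dark circles replicate 1, light triangles replicate 2), as CPM plus 0.5 on a log axis against the day in induction medium. Axin2 and Sox2 stay above their D0 level through D7, Ass1 and Kcnq1 peak and come down, Csf1 stays low, and Klf2 and Asns are lower at D1 than at D0 and higher at D7.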

How the data were processed

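RNA-seq was read from 10 libraries, 2 at each of 5 days, sequenced on a NextSeq 500. The deposited expected counts per gene, and TPM beside them, are RSEM output in the authors' files; the submitters' processing notes name RSEM, Bowtie2, bcl2fastq and mm10, and no header gives a version. The labels name 2 library kits without assigning them to libraries, and do not say whether counting used strand. Gene names follow the GENCODE M21 identifiers, and 29 of 54752 identifiers had none.

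Expected counts were rounded to whole numbers. Genes passed edgeR's expression filter with the 5 days as groups (minimum count 10). Libraries were scaled by TMM, and all 10 were fitted with day and replicate number as terms in edgeR 4.0.16 (R 4.3.3). The deposited TPM entered 1 alternative, as log2(TPM + 1) in limma 3.58.1. Rows without a gene name held at most 0.0018% of a library's counts. The series text names 2 experiments without tying them to replicate numbers, and the replicate number was the block set for the comparison. Deviations of same-numbered libraries from day means correlated between days at 0.27 to 0.44 (0.41 for D1 with D0). Fragment length also separates the replicate numbers, so this correlation cannot show which libraries share a culture. Replicates differed beyond counting noise (chi-square per gene 11.2 at D1 and 7.75 at D0).

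Genes named are the delivered factors, up to 4 called members in each direction of each list by smallest p, the 15 largest rises and falls, and well-known members that were not called; exceptions are named in the text. Some genes that this rule picks are not reported here. The members and lists were chosen with earlier results of these data known. The fit was tested on simulated data. The 13 alternatives, 4 of which leave out a library, are given with the results they change.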

Additional observations from a re-analysis of the deposited data

How the results depend on the processing

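The count of 1350 called genes (672 higher and 678 lower) stayed within 1.5 times under DESeq2 size factors (1363), upper-quartile scaling (1350), the stricter filter (1254), no filter (1714), DESeq2 (1226) and limma-voom (1364). It was 577 without the replicate block (307 higher and 270 lower) and 883 by limma on the deposited TPM (451 higher and 432 lower). Fitted on the D1 and D0 libraries alone, which leaves 1 residual degree of freedom, it was 3455 (1774 higher and 1681 lower). Leaving out 1 library at a time gave 436 to 720 calls, 234 to 421 higher and 202 to 338 lower. The library left alone on its day is then assumed to vary like the others, and 317 genes were called in each of these 4 fits. The alternatives were followed gene by gene for 133 called genes named in the text, which leaves out Fosl2, Egln3 and Ddit4. Of these 133, 89 kept their call in each alternative that could test them and 96 when single libraries were left out. A few named genes that were not called changed sign. The ranges of their log2 changes when single libraries were left out were -0.0929 to 0.39 for Sall4, -0.68 to 0.58 for Egr1, -0.76 to 0.029 for Jun, -0.0279 to 0.55 for H19, -0.0103 to 0.0587 for Ctnnb1 and -0.13 to 6.95 for Pou5f1. Egr1 had 0.030 without the replicate block, and Ctnnb1 had -0.0098 with DESeq2 size factors, -0.0099 by DESeq2 and -0.060 on TPM. No alternative moved the median log2 change of all genes by more than 0.06. The cause of these losses was not tested. Counts were few for Pou5f1 and Nanog, whose levels differed between the D1 libraries.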

Other observations

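Several small families outside the lists above held genes with large changes; they were picked after their values were seen and are descriptions, with no count over them offered as support. FXYD proteins modulate the sodium pump, and Fxyd2 had 119 and 196 CPM at D1, against 4.89 and 7.48 CPM at D0 (4.76 ± 0.53, edgeR adjusted p = 1.33e-04). Fxyd6 had 441 and 313 CPM at D1, against 27.4 and 21.7 CPM at D0 (3.94 ± 0.47). Of the 9 tested genes of pump subunits and FXYD proteins, 5 rose, against 5.27% of all tested genes. None of the 9 fell by edgeR over all 10 libraries or DESeq2, with 0 negative at an unadjusted p under 0.05. The family was picked on these values, so its count follows from that choice and is no support. With D1 replicate 1, D1 replicate 2, D0 replicate 1 and D0 replicate 2 left out in turn 3, 4, 3 and 3 were called higher, and the fit on D1 and D0 alone called 6 higher and 1 lower. The carbonic anhydrase gene Car2 had 292 and 193 CPM at D1, against 13.7 and 9.73 CPM at D0 (4.35 ± 0.41). Car4 had 306 and 106 CPM at D1, against 7.34 and 8.98 CPM at D0 (4.68 ± 0.61). Of 8 tested carbonic anhydrase genes 2 rose and 1 fell, and the call of the fall was lost when any one of the 4 libraries was left out. Tcirg1, a subunit of the vacuolar proton pump, had 346 and 696 CPM at D1, against 74.9 and 103 CPM at D0 (2.46 ± 0.34). Ryr1, the calcium release channel of skeletal muscle, had 199 and 135 CPM at D1, against 3.42 and 2.99 CPM at D0 (5.67 ± 0.37, edgeR adjusted p = 8.50e-06). The summed skeletal muscle markers were 58.4 and 106 CPM at D1 and 235 and 307 CPM at D0; of 3 tested, 2 had a positive change and Des fell.

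The neurofilament gene Nefm had 38.3 and 144 CPM at D1, against 1.47 and 1.497 CPM at D0 (5.63 ± 0.57). Nefh had 52.04 and 66.9 CPM at D1, against 1.47 and 4.49 CPM at D0 (4.49 ± 0.56). The summed neuronal and glial markers, Nefm included, were 134 and 281 CPM at D1 and 235 and 296 CPM at D0. Ngfr, the low-affinity neurotrophin receptor, had 755 and 1025 CPM at D1, against 37.2 and 64.4 CPM at D0 (4.16 ± 0.43, edgeR adjusted p = 7.66e-05). The retrotransposon-derived X-linked genes Rtl8a, Rtl8b and Rtl8c rose by 2.16, 2.42 and 3.15 on the log2 scale, and since their sequences are alike, reads may be split among them. Annexins bind membranes in the presence of calcium. Anxa1 had 54.2 and 71.9 CPM at D1, against 483 and 414 CPM at D0 (-2.86 ± 0.36). Anxa3 had 15.8 and 43.4 CPM at D1, against 193 and 219 CPM at D0 (-2.95 ± 0.38).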
